A study of Mus musculus with 2 samples.

Results

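Locally clustered CCGG sites were positions of the motif CCGG on chromosomes 1 to 19 with 5 or more other listed CCGG positions within 500 bp on either side, where listed means present in the deposited table of either methylRAD library. The rule found 9115 such positions among 780249 CCGG positions listed on these chromosomes (1.17%). They were compared with 424738 isolated positions (54.4%), which had 0 others within 500 bp, and set beside 346396 intermediate positions with 1 to 4 others. The listing itself chose the members, so their density and their presence are descriptions and not results. The most crowded position had 21 others within 500 bp.

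The libraries came from mouse F9 cells, an embryonal carcinoma line that grows as undifferentiated stem-like cells and turns into endoderm-like cells under retinoic acid. The undifferentiated library came from cells kept on gelatin-coated plates. The differentiated library, labelled D4, came from cells plated in low-attachment dishes with 1 µM retinoic acid. Each state had 1 library, so no value below has a replicate error, and every test on read counts compares 2 libraries and not the conditions. No genetic change was named for either library, and both carry the genome of the same tumour-derived line.

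In methylRAD, the enzyme FspEI cuts DNA at a fixed distance from a methylated cytosine that follows another cytosine. A CCGG whose inner CpG is methylated on both strands is cut on both sides, which releases a fragment of about 30 bp with the site in its middle. In mammals most CpG sites are methylated, whereas CpG islands, the CpG-dense stretches over many gene starts, are mostly unmethylated. A dense group of listed CCGG sites is therefore a place where many closely spaced cytosines gave methylation-dependent fragments. A set of germline genes is a known exception among CpG-rich promoters, since their starts are methylated outside germ cells. A position is listed only with 5 or more reads in a library. An unlisted position thus had 0 to 4 reads and was given 4 in ratios and tests. Listed counts summed to 20550450 reads for undifferentiated and 21291239 for differentiated cells, of which 16687588 and 15705436 fell on CCGG. Clustered positions held 0.903% and 1.11% of the CCGG counts on chromosomes 1 to 19.

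Sequences at gene starts show what such a group looks like. The RefSeq table of GRCm38.p6 gave 31365 windows of 300 bases, from 250 before to 50 after a gene start, and 155 of them (0.494%) held a clustered position. The motif CCGG, which reads the same on both strands, was present in 53.5% of all windows. The 9 windows below were chosen after their values were seen. They comprise windows with many clustered positions, windows of the germline list, 2 in which the listed sites thinned out in the differentiated library, and the window of Dnmt3b as a CCGG-rich start with none listed. Each sequence is given 5′ to 3′ in the direction of the gene, and capitals mark each CCGG listed in either library.
Papolb (chr5:142530027-142530326, minus strand): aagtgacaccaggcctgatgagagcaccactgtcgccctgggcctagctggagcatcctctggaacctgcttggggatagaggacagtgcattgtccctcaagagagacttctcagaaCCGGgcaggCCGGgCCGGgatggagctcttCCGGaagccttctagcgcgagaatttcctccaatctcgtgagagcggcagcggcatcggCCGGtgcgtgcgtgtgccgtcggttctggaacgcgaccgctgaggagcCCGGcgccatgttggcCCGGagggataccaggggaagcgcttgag
Dmrtb1 (chr4:107683540-107683839, minus strand): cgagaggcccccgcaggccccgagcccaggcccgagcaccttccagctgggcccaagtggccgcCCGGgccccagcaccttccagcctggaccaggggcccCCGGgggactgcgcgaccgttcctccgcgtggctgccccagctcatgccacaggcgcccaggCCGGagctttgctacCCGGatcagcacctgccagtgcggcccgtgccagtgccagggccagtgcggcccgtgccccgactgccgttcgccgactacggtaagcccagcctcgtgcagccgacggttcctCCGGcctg
Ddx4 (chr13:112652261-112652560, minus strand): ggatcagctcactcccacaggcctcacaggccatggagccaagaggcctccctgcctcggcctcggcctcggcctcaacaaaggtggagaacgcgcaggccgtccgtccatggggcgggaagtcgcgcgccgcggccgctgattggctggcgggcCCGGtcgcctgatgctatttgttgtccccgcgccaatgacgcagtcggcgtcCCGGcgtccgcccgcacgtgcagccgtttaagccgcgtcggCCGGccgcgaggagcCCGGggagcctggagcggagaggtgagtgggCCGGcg
Hormad1 (chr3:95559427-95559726, plus strand): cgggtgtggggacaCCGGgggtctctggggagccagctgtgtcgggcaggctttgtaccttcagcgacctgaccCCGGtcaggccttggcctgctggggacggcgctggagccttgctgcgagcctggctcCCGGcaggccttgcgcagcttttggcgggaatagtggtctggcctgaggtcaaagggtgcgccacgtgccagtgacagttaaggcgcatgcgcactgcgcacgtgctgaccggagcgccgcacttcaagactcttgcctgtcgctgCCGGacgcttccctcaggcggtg
Mael (chr1:166238695-166238994, minus strand): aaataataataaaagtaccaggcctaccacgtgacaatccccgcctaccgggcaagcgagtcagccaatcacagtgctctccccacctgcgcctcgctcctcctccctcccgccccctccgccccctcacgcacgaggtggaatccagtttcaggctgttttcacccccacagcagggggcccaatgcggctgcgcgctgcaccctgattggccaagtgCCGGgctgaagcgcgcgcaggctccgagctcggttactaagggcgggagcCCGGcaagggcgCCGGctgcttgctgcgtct
Lep (chr6:29059971-29060270, plus strand): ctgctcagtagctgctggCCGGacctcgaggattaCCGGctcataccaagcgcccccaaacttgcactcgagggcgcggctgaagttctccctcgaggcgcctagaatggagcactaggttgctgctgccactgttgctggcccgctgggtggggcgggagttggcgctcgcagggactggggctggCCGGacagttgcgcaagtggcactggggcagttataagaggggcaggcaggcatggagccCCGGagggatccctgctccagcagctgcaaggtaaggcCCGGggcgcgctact
Pde4a (chr9:21183851-21184150, plus strand): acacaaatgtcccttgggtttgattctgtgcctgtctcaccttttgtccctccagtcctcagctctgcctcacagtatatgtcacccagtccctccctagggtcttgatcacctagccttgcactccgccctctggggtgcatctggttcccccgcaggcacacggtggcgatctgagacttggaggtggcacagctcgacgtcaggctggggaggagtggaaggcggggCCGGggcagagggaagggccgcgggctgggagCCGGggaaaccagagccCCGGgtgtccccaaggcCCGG
Gm36883 (chr9:114057250-114057549, minus strand): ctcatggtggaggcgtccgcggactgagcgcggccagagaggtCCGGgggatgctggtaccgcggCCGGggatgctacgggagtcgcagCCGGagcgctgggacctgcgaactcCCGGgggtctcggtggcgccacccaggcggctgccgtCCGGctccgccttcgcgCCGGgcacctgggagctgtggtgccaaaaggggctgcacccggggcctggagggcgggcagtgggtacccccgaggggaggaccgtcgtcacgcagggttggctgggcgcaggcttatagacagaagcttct
Dnmt3b (chr2:153649199-153649498, plus strand): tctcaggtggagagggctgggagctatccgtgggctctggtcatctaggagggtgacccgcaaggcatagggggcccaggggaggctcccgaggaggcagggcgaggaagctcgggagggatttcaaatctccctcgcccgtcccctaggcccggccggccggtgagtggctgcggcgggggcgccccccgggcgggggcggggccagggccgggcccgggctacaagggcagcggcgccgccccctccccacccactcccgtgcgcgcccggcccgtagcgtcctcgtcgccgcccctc

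Papolb, which encodes a poly(A) polymerase of the testis, had all 7 of its CCGG listed. Counts at these 7 sites, in the order of the printed sequence, were 11, 12, 6, 5, 11, 16 and 10 in the undifferentiated library. In the differentiated library they were 5, 5, unlisted, 7, 5, 8 and 12, so 4 of the 6 sites listed in both had fewer reads and 2 had more. Dmrtb1, a transcription factor gene of male germ cells, gave 7, 14, 30, 5 and 61 reads in undifferentiated and 10, 23, 39, 17 and 25 in differentiated cells. The first 4 of its sites were higher and the last was lower in the differentiated library. Ddx4, the germ cell RNA helicase also called Vasa, had 5 listed sites with 5, 9, unlisted, 11 and 12 reads against 12, unlisted, 11, unlisted and 16. At Ddx4 a site listed in one library was thus often next to a site listed only in the other.

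Hormad1, a component of the meiotic chromosome axis, had 4 of its 5 CCGG listed, with 18, 13, 18 and unlisted in undifferentiated against 30, 6, 13 and 6 in differentiated cells. Mael, of the piRNA pathway that silences transposons in germ cells, had 32, 19 and 19 reads at 3 sites against 18, 14 and 14. The last 2 of these lie 12 bp apart and carried equal counts in both libraries. Lep, which encodes the fat hormone leptin, had 5 of 5 listed, with unlisted, 33, 71, 9 and 9 against 12, unlisted, 67, 26 and 15. The first 2 sites at Lep, 17 bp apart, were listed in 1 library each, the first in differentiated and the next in undifferentiated cells. The most abundant site was nearly level, and the last 2 had more reads in differentiated cells. At Dnmt3b, a de novo DNA methyltransferase gene, none of 7 CCGG was listed in either library, which allows 0 to 4 reads at each.

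**Figure D1:**
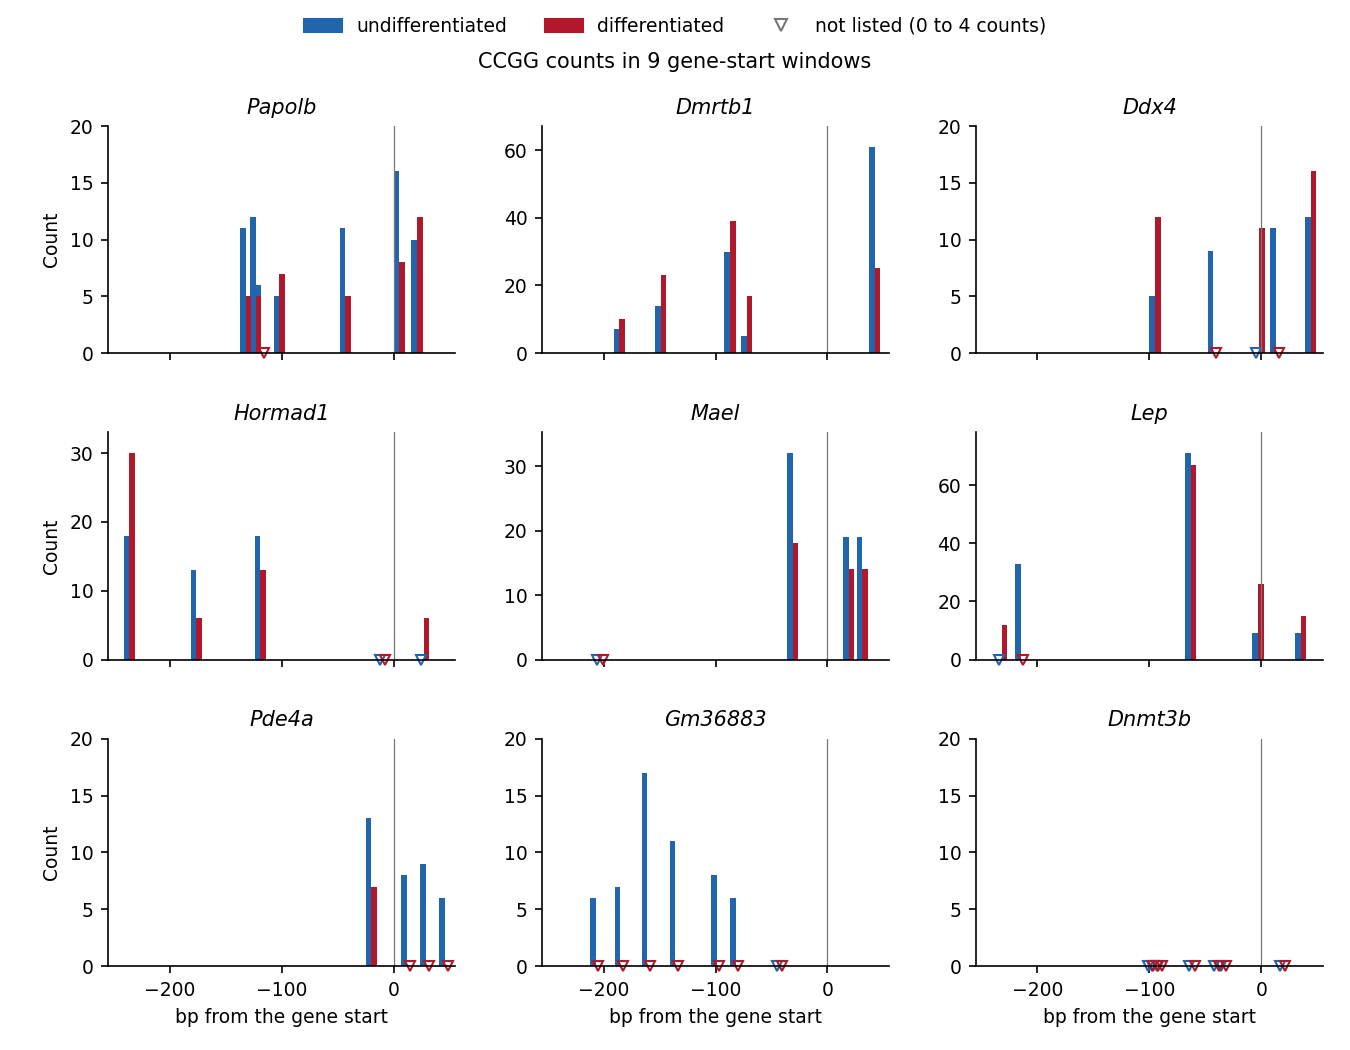
Counts at every CCGG of 9 gene-start windows, by distance from the start (bp), with 1 bar per library and open triangles where a site is not listed. The 6 windows from Papolb to Lep have sites in both libraries, those of Pde4a and Gm36883 are mostly bare in the differentiated library, and all 7 sites of Dnmt3b are unlisted.

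Gene starts with listed clusters were poorer in CpG than starts with a CCGG in general. The 155 windows with a clustered position had a median observed-to-expected CpG ratio of 0.57 and a median GC content of 62.3%, against 0.71 and 60.3% over the windows with 1 or more CCGG. Over all windows, many of which hold no CCGG, the values were 0.39 and 53.0%. The 17 windows with 5 or more clustered positions had a median CpG ratio of 0.68. Of the 2529 windows with 5 or more CCGG, 2061 had none listed, and their median CpG ratio was 0.91. Of all CCGG in those 2529 windows, 5.31% were listed, against 40.2% of the CCGG in windows that held only 1. Ddx4, with a CpG ratio of 0.98, and Papolb, with 0.77, lay toward the CpG-rich end. Among the 17 windows (0.0542% of all) with 5 or more clustered positions were those of Npy5r, a neuropeptide Y receptor gene, Epo, which encodes erythropoietin, and Cyp2r1, which encodes a vitamin D hydroxylase. Npy5r had 81 reads at 5 sites in undifferentiated and 111 in differentiated cells, Epo had 53 at 5 sites and 51 at 3, and Cyp2r1 had 64 at 3 and 53 at 5.

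A clustered position carried fewer reads than an isolated one. In the undifferentiated library the median count of listed clustered positions was 15, with quartiles of 8 and 27, against 19, with quartiles of 10 and 31, for isolated positions. In the differentiated library the medians were 15 and 17. The median summed count over both libraries was 23 for clustered and 30 for isolated positions, a ratio of 0.767, and it was lower in clustered positions on 19 of 19 chromosomes. The 3 clustered positions with different motif entries in the 2 tables were left out here, which leaves 9112. At the edge of the rule, 4994 positions with 5 others had a median summed count of 24, and 12439 positions with 4 others, just outside it, had 28. Medians fell further to 19 with 8 to 9 others and to 15 with 10 to 14.

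The most crowded class broke this order. The 27 positions with 15 or more others had median counts of 46 and 108 and a median log2 ratio, differentiated over undifferentiated per CCGG total, of 1.29. All 27 were listed in both libraries, which is the opposite of the class with 10 to 14 others, where 56.6% of 272 were. All 27 of them lay in the 2 clusters of the ribosomal RNA repeat described below.

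**Figure D2:**
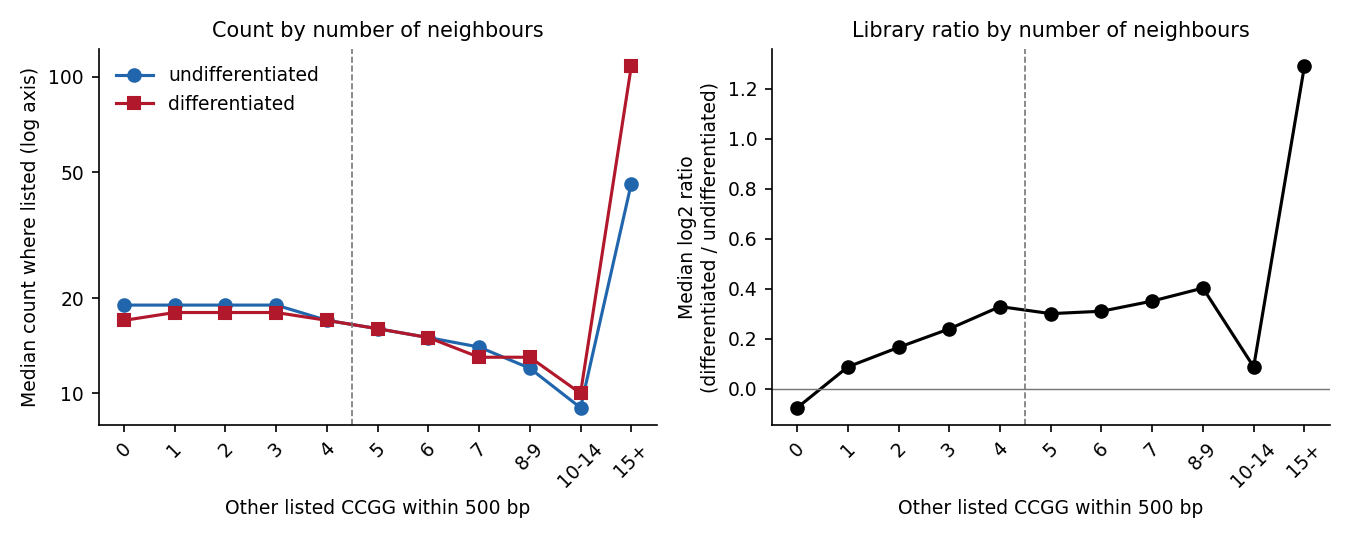
Left, the median count of listed positions in each library (log axis) by number of other listed CCGG within 500 bp; right, the median log2 ratio of the libraries. Clustered positions lie right of the dashed line; counts fall to 9 and 10 with 10 to 14 others and reach 46 and 108 with 15 or more, while the ratio rises from -0.08 with 0 others to 0.33 with 4.

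Per CCGG total, positions with other listed CCGG nearby leaned toward the differentiated library, within the rule and just outside it. The median log2 ratio was 0.31 for clustered, 0.09 for intermediate and -0.08 for isolated positions. It was 0.24 with 3 others, 0.33 with 4, 0.30 with 5, 0.31 with 6, 0.35 with 7 and 0.40 with 8 to 9. Only in the 272 positions with 10 to 14 others did it fall, to 0.09. The other scalings lower every value by 0.16 or 0.23, which puts the medians of 0.09 below 0 and leaves that of clustered positions above it. The difference from isolated positions, 0.39, does not depend on how the libraries are scaled, and ranged from 0.17 on chromosome 13 to 0.53 on chromosome 6, above 0 on 19 of 19 chromosomes. Much of it lay in positions missing from one table. Of the clustered positions, 1778 were listed only in the differentiated and 1325 only in the undifferentiated library, whereas isolated positions had 48603 and 82561. Among positions listed in both libraries the difference was 0.15. By summed count it was 0.68 at 10 to 19 reads, 0.49 at 20 to 39, 0.19 at 40 to 79, 0.10 from 80 to below 160 and 0.23 at 160 or more, where it was -0.03 without the 2 clusters of the ribosomal RNA repeat. It was 0.64 at 5 to 9 reads, where no position can be listed in both libraries. The difference was thus larger below 40 reads, near the listing minimum of 5, than above, and the part of the minimum in the result was not tested.

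Being listed in both libraries was less frequent in clusters. The share was 65.9% of clustered positions (95% Wilson interval 64.97 to 66.91), 71.6% of intermediate and 69.1% of isolated ones (69.0 to 69.3). These intervals cover counting error only, and positions in a cluster are not independent. Within classes of summed count, which is made of the same 2 counts that decide the listing, the order turned. At 20 to 39 reads 93.0% of clustered and 85.5% of isolated positions were listed in both, and at 10 to 19 reads 52.6% and 44.5% were.

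Choosing the members in one library leaves the other as a measure that the choice did not use. In the undifferentiated table alone, 4545 positions had 5 or more listed others. Of them 82.8% (81.7 to 83.9) were listed in the differentiated library, against 78.2% (78.1 to 78.3) of isolated positions chosen in the same way. In the differentiated table alone 5520 positions qualified, 5517 of them without the 3 that have different motif entries, and 77.8% (76.7 to 78.9) of these were listed in the undifferentiated library, against 85.8% (85.7 to 85.9) of isolated ones. Intermediate positions gave 82.8% in the first choice, the same as clusters, and 84.1% in the second. Clusters chosen in undifferentiated cells were thus found again as often as intermediate and more often than isolated positions, and clusters chosen in differentiated cells less often than both.

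Spacing inside the clusters went with both count and ratio. The median distance from a clustered position to its nearest listed CCGG was 44 bp, against 1428 bp for isolated positions. It was 16 bp or less, a distance at which a fragment of about 30 bp around one site can hold the other, for 23.7% of clustered positions, and 32 bp or less for 40.3%. Clustered positions with a neighbour within 16 bp had a median summed count of 16, a median log2 ratio of 0.49, and 54.3% of them were listed in both libraries. Those with no neighbour within 100 bp, 22.0% of the members, had a count of 28, a ratio of 0.14 and 70.1%. Their ratio was still 0.22 above that of isolated positions. Intermediate positions with a neighbour within 16 bp had the same median count, 16, and a higher ratio, 0.67. How reads that span several sites were assigned is not given in the sources used here, and the part of shared fragments in the ratio was not tested.

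**Figure D3:**
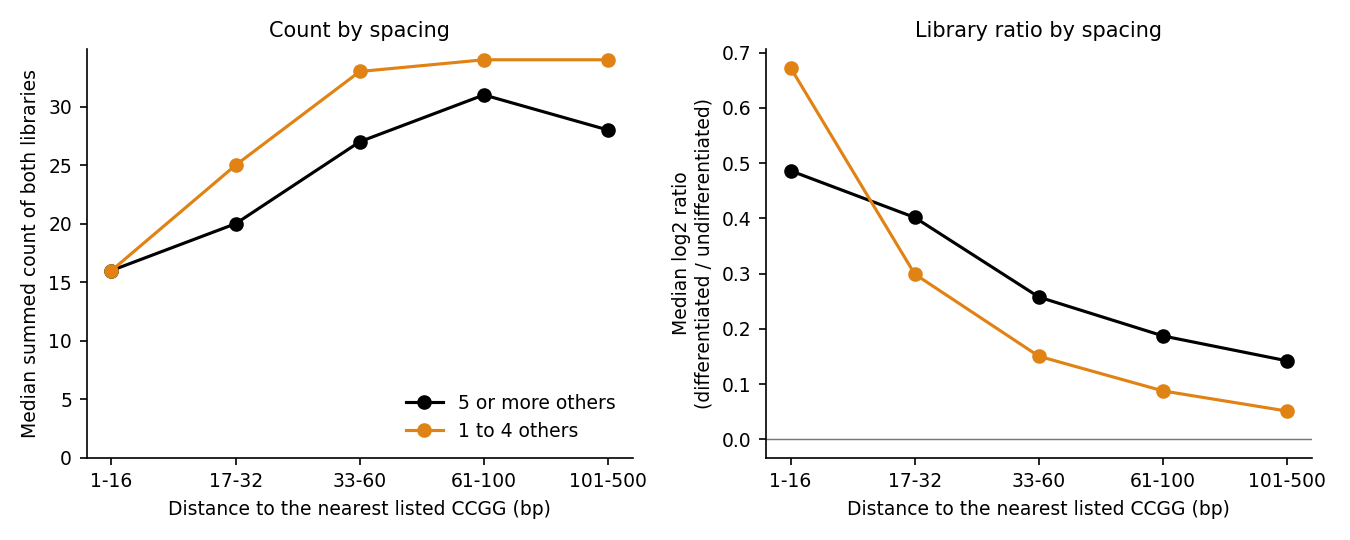
Median summed count (left) and median log2 ratio (right) by distance to the nearest listed CCGG (bp), for clustered positions and for those with 1 to 4 others. From the closest to the widest class, clustered positions go from 16 to 28 reads and from 0.49 to 0.14 in log2 ratio, and positions with fewer others from 16 to 34 reads and from 0.67 to 0.05.

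Neighbours inside a cluster shared little of their ratio unless they lay within a few bases. Among 541 adjacent clustered pairs at 16 bp or less with all 4 counts listed, 35.5% had equal counts in both libraries, and Pearson's r between the 2 log2 ratios was 0.81. Of 2749 such pairs at 17 to 500 bp, 1 pair had equal counts, and r was 0.06. Among pairs with 20 or more reads in all 4 counts, r was 0.24 over 477 pairs at 17 to 500 bp, and 0.06 over 415 pairs once chromosome 17, which carries the ribosomal repeat, was left out. In adjacent pairs that were not both clustered r was 0.02 over 20939 pairs at that depth. These correlations run across sites of the same 2 libraries, and sites are not independent replicates.

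**Figure D4:**
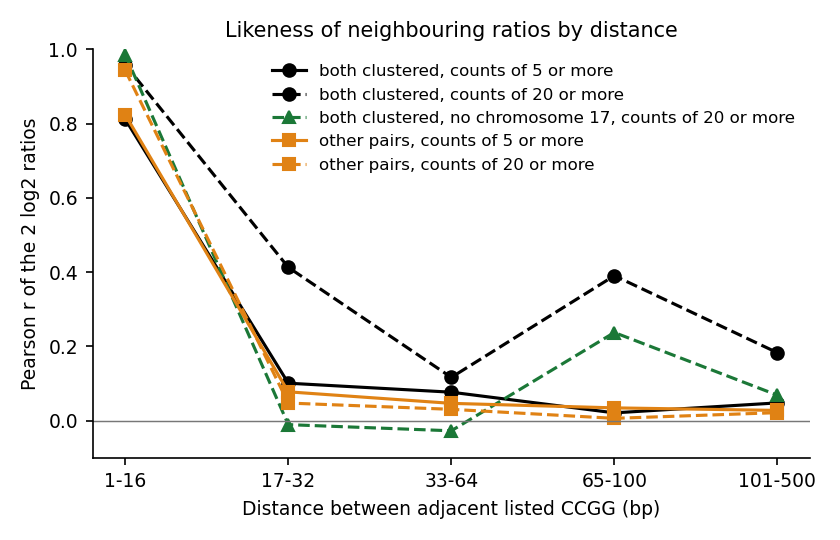
Pearson's r between the log2 ratios of 2 adjacent listed CCGG by their distance (bp), for pairs of clustered positions and other pairs, with at least 5 or at least 20 reads in each count. All lines start above 0.8 within 16 bp and fall below 0.5 beyond it; the green line leaves out chromosome 17.

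Over all depths, calls between the libraries were less frequent in clusters than among isolated positions. A position was called when Fisher's exact test of its reads against the rest of the CCGG total gave a Benjamini-Hochberg adjusted p under 0.05, over 763323 positions tested, of which 23.5% were called. Over all tested positions 11.6% were higher in differentiated cells and 11.9% were lower. Of 8535 clustered positions tested, 1558 (18.3%) were called, 1107 higher (13.0%) and 451 lower (5.28%). Isolated positions had 24.0% called, 10.9% with more and 13.1% with fewer reads in differentiated cells. By summed count, 22.5% of clustered and 31.0% of isolated positions were called at 20 to 39 reads, 33.3% and 32.98% from 80 to below 160, and 57.4% of 94 and 47.3% of 1956 at 160 or more. In the last class 35 of the 94 clustered positions lay in the ribosomal RNA repeat, 30 of them called, and of the other 59 40.7% were called. Nothing is read from these counts beyond their description, since the reads of both libraries entered the listing that chose the members. The split depended on the scaling: 71.1% of the called clustered positions were higher per CCGG total, 57.3% with a median-ratio scaling and 50.8% with the divisors of the deposited RPM values, which lower every log2 ratio by 0.16 and 0.23. In isolated positions the higher share was 45.5%, 32.6% and 28.0%, below that of clustered positions under each of the 3 scalings.

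Merging members at most 500 bp apart gave 2140 clusters. They had a median of 4 members over 291 bp and the longest was 3779 bp. There were 495 clusters with 1 member, whose neighbours did not themselves meet the rule, and 89 with 10 or more. Reads were summed over members with 4 for each unlisted entry, and cluster tests and log2 ratios use these filled sums. Printed reads of a cluster are listed reads only, so they need not give its log2 ratio. On the filled sums, 659 clusters (30.8%, which is the background itself, since all clusters are members) were called. Of these, 489 were higher and 170 were lower in differentiated cells per CCGG total. The split was 345 to 247 with the median-ratio scaling and 296 to 291 with the RPM divisors, so an excess of higher clusters was nearly absent under the last. A change of at least 2-fold was found in 182 called higher and 83 called lower.

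Members of a cluster often disagreed. Of 358 clusters with 2 or more called members, 197 had all of them higher, 37 all lower, and 124 had members called in both directions. These directions are given per CCGG total only. Members within 16 bp can share reads, so members called alike are not always separate sites of evidence. In 468 clusters with 5 or more members listed in both libraries, the median SD of the log2 ratio within a cluster was 0.80, against 0.54 from counting error alone, and the median range from lowest to highest member was 2.06.

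**Figure D5:**
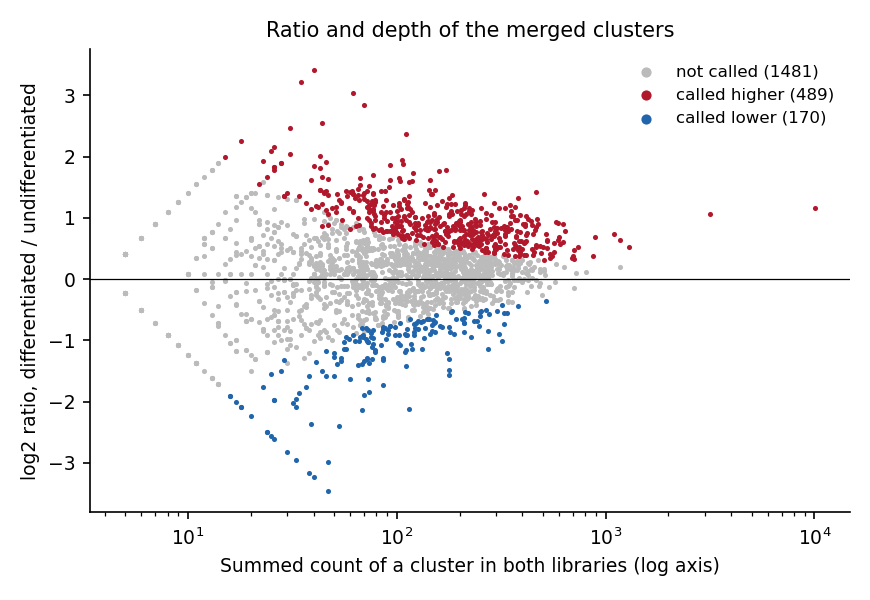
Log2 ratio of each of 2140 merged clusters against its summed count (log axis), coloured by call. Called clusters lie on both sides of 0, 489 above and 170 below, and the 2 clusters of the ribosomal repeat stand apart at the right with ratios of 1.16 and 1.06.

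The cluster with the most members, 52, lay in Rn18s-rs5, an annotated copy of the ribosomal RNA gene, at chr17:39843013-39846791. Ribosomal RNA genes exist in many near-identical copies, so reads here cannot be assigned to a single copy. Counts summed to 3260 in undifferentiated and 6833 in differentiated cells, a log2 ratio of 1.16. The 3 members with different motif entries in the 2 tables were left out of these sums, which leaves 49 members compared. At the 49, counts ran from 6 to 317 with a median of 52 in undifferentiated cells. In differentiated cells they ran from 5 to 983 with a median of 115, so the ranges overlap. The ratio was above 0 at 43 and below 0 at 6, and 38 members were called higher and 0 lower. Over all tested positions 11.6% were called higher and 11.9% lower, and over clustered ones 13.0% and 5.28%. A second cluster of 17 members at chr17:39847332-39848755, over AY036118 and Rn18s-rs5, went from 1070 to 2108 reads, a log2 ratio of 1.06. In it 10 members were called higher and 0 lower, beside the same shares. Isolated positions of that 5-Mb stretch had a median summed count of 23. These clusters had 194 and 187 reads per member, divided by all 52 and 17 members.

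Other large clusters named here had log2 ratios from -0.02 to 0.96. A cluster of 28 members on chromosome 12 at chr12:5055043-5058014, in no annotated gene, had 558 and 617 reads, a log2 ratio of 0.20 and an adjusted p from Fisher's exact test of 0.053. Within it a spacing of 31 bp between adjacent listed sites occurred 7 times. The 4 clusters at this place together had 61 members with 865 and 1102 reads. In one of them, at chr12:5049857-5052010, a spacing of 124 bp, which is a multiple of 31, occurred 5 times among 19 members, and its reads went from 122 to 247 with a log2 ratio of 0.96. A cluster of 20 members in Lmtk3, a kinase gene of the nervous system, had 238 and 314 reads (log2 0.39). At the start of C1ql3, which encodes a secreted synaptic protein, 19 members had 228 and 199 reads (log2 -0.02). Among protein-coding genes, Col26a1 and Tnrc18 held the most clustered positions, 31 each, followed by Plec, which encodes the cytoskeletal linker plectin, with 27. Summed reads at these members were 431 and 355 at Col26a1, 411 and 563 at Tnrc18, and 428 and 618 at Plec.

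Outside the ribosomal repeat, the clusters with the most reads per member lay on distal chromosome 12. A single member 17704 bp from the start of Tc2n had 149 and 133 reads, 6 members in Dync1h1, which encodes the heavy chain of cytoplasmic dynein, had 550 and 745, and a single member in Ccdc85c had 123 and 90. Isolated positions between 100 and 115 Mb of chromosome 12 had a median summed count of 61, against 30 elsewhere, and the 3 5-Mb stretches in it were the highest of 496 in the genome. Clustered positions there had 37, against 23 elsewhere.

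Called clusters with at least 100 reads included changes of more than 2-fold in both directions. Among the 5 largest falls were those at Dnah8, an axonemal dynein gene (2 members, 93 to 21 reads, log2 -2.12), the predicted gene Gm46607 (5 members, 134 to 45, log2 -1.49), Bin2 (3 members, 85 to 26, log2 -1.41) and Tbc1d9b (6 members, 132 to 46, log2 -1.31). At Gm46607 3 of 5 members were themselves called lower, while at Dnah8 and Tbc1d9b 1 member was. Over all tested positions 11.9% were called lower, and over clustered ones 5.28%, while these clusters were chosen for their fall. The largest rises were at Trpm4, a calcium-activated cation channel gene (2 members, 19 to 92, log2 2.36), Cyp46a1, a cholesterol hydroxylase gene of the brain (2 members, 23 to 83, log2 1.94), the predicted gene Gm36301 (3 members, 24 to 83, log2 1.88), Cep170b (1 member, 41 to 132, log2 1.77) and Cdc42bpb (3 members, 38 to 121, log2 1.76). The 2 members at Trpm4 together span 10 bp and had 46 reads each in differentiated cells, so that counted as 1 site the cluster would not reach 100 reads. Of these 5 clusters 3, at Cyp46a1, Cep170b and Cdc42bpb, lie in the high-count stretch of chromosome 12.

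Some larger clusters were listed almost wholly in 1 library. Of 944 clusters with 5 or more members, 15 had at least 90% of members listed in undifferentiated and at most 30% in differentiated cells, and 25 showed the reverse, whereas 120 had every member listed in both. These thresholds were set after the values were seen. At the start of Pde4a, which encodes a cyclic-AMP phosphodiesterase, 11 of 11 members had reads in undifferentiated cells (115 in all) and 3 of 11 in differentiated cells (17 in all). The 4 sites in its printed window had 13, 8, 9 and 6 reads against 7 at the first and none listed at the others. In a cluster inside Susd5, which begins 24 bp past its start and lies before the start of the oppositely read gene Gm36883, 10 of 11 members had 94 reads in undifferentiated and 3 of 11 had 17 in differentiated cells. The 6 listed sites in the printed window of Gm36883 had 6, 7, 17, 11, 8 and 6 reads and none was listed in differentiated cells. At Ltbp2, which encodes a latent TGF-beta binding protein, 7 members went from 80 to 6 reads.

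In the other direction, 12 members near the start of Lrrc41 had 21 reads at 3 sites in undifferentiated and 85 at 12 sites in differentiated cells. Near Isyna1, which encodes inositol-phosphate synthase, 10 members had 16 reads at 2 sites against 100 at 10. At Setd1b, a histone H3K4 methyltransferase gene, 0 of 9 members was listed in undifferentiated cells. The 9 had 78 reads in differentiated cells, at most 21 at a site. At Marchf9, 0 of 7 was listed in undifferentiated cells, and the 7 had 70 reads in differentiated cells, at most 14 at a site. Of the 14 clusters mostly unlisted in the differentiated library on chromosomes with annotated gene starts, 6 lay within 1 kb of a start. So did 9 of the 25 in the other direction, against 20.2% of all 930 clusters of 5 or more members with such starts. Clustered positions within 1 kb of a start also had lower median counts, 11 and 11, against 16 and 15 in genes farther from starts. The part of depth in this comparison was not tested. An unlisted site may still have up to 4 reads.

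Clustered positions lay mostly in genes and often near gene starts. On GRCm38, 84.5% of them (95% Wilson interval 83.7 to 85.2) were inside an annotated gene, against 57.3% of isolated positions (57.2 to 57.5). Within 1 kb of an annotated gene start lay 17.2% (16.39 to 17.95) against 2.72% (2.67 to 2.77), with starts known on 18 of the 19 chromosomes. Of 2098 merged clusters with such starts, 340 (16.2%) lay within 1 kb of one. In protein-coding genes of at least 5000 bp with a known strand, counted as 4975 pairs of a clustered position and a gene, 16.98% were in the first 10% of the gene's length and 20.4% in the last 10%, against 9.47% and 11.0% of 162030 pairs of an isolated position and a gene. Exons, introns and untranslated regions were not told apart, since the annotation used gives gene bounds only. The last 5 Mb of chromosomes held 7.61% of clustered and 4.51% of isolated positions. By chromosome, clustered positions made up 1.78% of the listed CCGG on chromosome 17 and 1.69% on chromosome 11, but 0.549% on chromosome 16. The density of CCGG in the genome, which also differs between these places, was not measured here.

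Near gene starts the median ratio of clustered positions was not above that of isolated ones. Within 1 kb of a start, 1533 clustered positions had median counts of 11 and 11 and a median log2 ratio of 0.09, which is 0.07 below that of the 11148 isolated positions there. In genes but farther from starts, 6166 clustered positions had a median log2 ratio of 0.35, which is 0.39 above isolated ones, and outside genes 1237 had 0.36, which is 0.49 above. The difference between places was not tested. At starts 56.4% of clustered and 56.8% of isolated positions were listed in both libraries, and 122 of 1409 tested were called higher and 72 lower. More of these calls were thus higher than lower, and the calls in both directions made up a smaller share than the 11.6% higher and 11.9% lower over all tested positions.

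Of the gene lists, germline genes had clusters most often at their starts. A clustered position lay in the gene or up to 2 kb before it for 7 of 18 germline genes, against 1514 of 20665 protein-coding genes (7.33%), and within 1 kb of the gene's own start for 7 of 17 with a known start, against 273 of 16457 (1.66%). These 7 were Mael, Hormad1, Ddx4, Slc25a31, which encodes an ADP/ATP carrier of sperm, Sycp1 and Sycp3, which encode parts of the synaptonemal complex, and Tdrd1, a tudor-domain gene of the piRNA pathway. Reads at their clustered positions were 104 and 89 at Mael, 63 and 76 at Hormad1, 81 and 72 at Ddx4, 48 and 91 at Slc25a31, 141 and 128 at Sycp3, 21 and 22 at Tdrd1, and 18 and 25 at the 1 position of Sycp1. Of their 39 clustered positions 2, both at Slc25a31, were called higher and 0 lower, beside 11.6% and 11.9% over all CCGG positions tested, and the median log2 ratio was -0.06. All 39 lie within 1 kb of a start, where clustered positions in general had a median of 0.09. The germline clusters were thus present in both states with nearly level counts at most genes.

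Clusters of primitive endoderm genes lay mostly away from starts, in 6 of 16 genes but within 1 kb of the own start in 1 of 8. Col4a1 and Col4a2 encode the chains of basement-membrane collagen IV and are read in opposite directions from neighbouring starts. At Col4a1 6 positions had 98 and 182 reads, and 3 were called higher. At Col4a2 8 positions had 257 and 231 reads, and 0 were called. Amn, which encodes part of an endocytic receptor of visceral endoderm, had 12 clustered positions, 8 listed with 189 reads in undifferentiated and 11 with 148 in differentiated cells. Their median log2 ratio, in which an unlisted entry counts as 4, was 0.67. Of the 12, 2 were called lower, the direction of the summed reads, and 0 were called higher. Gata4 and Gata6, transcription factors of this lineage, had 2 with 18 and 30 and 4 with 44 and 50. Of the 37 clustered positions in this list 4 were called higher and 2 lower, beside the same 11.6% and 11.9%, and 13.0% and 5.28% over all clustered positions tested.

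Pluripotency genes (0 of 18) and retinoic acid genes (0 of 15) had no clustered position, beside 7.33% of all protein-coding genes. A listed CCGG was found in 13 and 15 of them. In the Hox list 5 of 39 genes had clusters, of which Hoxd3, whose annotated span contains Hoxd4, had 23 positions with 306 and 271 reads, 1 called higher and 3 lower. Hoxd12 had 9, all within 1 kb of a start, with 63 and 69 reads. Among DNA methylation genes, 2 of 8 had clusters: Tet3 had 3 positions with 20 and 31 reads, and Dnmt1 had 6 with 94 and 108, and 0 of the 9 were called. Of 26 imprinted genes, 6 had clusters, led by Magel2 with 14 positions and 157 and 143 reads and Gnas with 11 positions and 130 and 139 reads. Magel2 had 1 position called higher and 1 lower, and Gnas had 1 lower. The calls of this paragraph stand beside 11.6% higher and 11.9% lower over all tested positions, and 13.0% and 5.28% over clustered ones. Of 58 clustered protocadherin genes, 14 shared the same 3 positions in their overlapping spans, with 25 and 62 reads.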

How the data were processed

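The 2 deposited methylRAD tables were used, 1 per library, with a count and a value headed RPM at each position. Per the submitters' processing notes FastQC 0.11.3 and Bowtie2 2.3.3 were used with GRCm38; the counting rule and the handling of reads over several sites are not given in the sources used here. In the tables the authors deposited, a count is a whole number of reads and is never below 5. The RPM values deposited by the authors were treated as a score, since they do not sum to 1000000, and served only as an alternative scaling. Positions were joined between libraries in Python 3.11.15 with pandas 2.3.3. Positions with under 5 reads were given 4 in ratios and tests, also where the members of a cluster were summed. Fisher's exact test, two-sided, compared each position with the rest of the CCGG total, and each merged cluster likewise. A position was tested when its 2 entries, with 4 for an unlisted one, summed to 10 or more. Benjamini-Hochberg adjustment ran over all tested positions or all clusters at 0.05. The test per position was tried on simulated data. PCR reads are not independent molecules, so intervals cover counting error only. CCGG motifs of the RefSeq GRCm38.p6 windows matched listed positions at their first base (6006 of 43639, against at most 49 at any other offset up to 20 bp). Named clusters were the 5 with the most members, the 5 with the highest summed count per member, and the 5 largest rises and falls among called clusters with at least 100 reads; some of these, and 1 gene of a list, are not reported here. Chromosome 18 has no sequence or start in the tables used here. Members and lists were chosen with earlier results of these data known.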

Additional observations from a re-analysis of the deposited data

How the results depend on the processing

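The design has 1 library per state, so no replicate could be left out. No paired analysis was possible because each state has 1 library. In 20 of the 21 alternatives run for it, the median log2 ratio of clustered positions stayed above that of isolated ones (0.10 to 0.68). The exception, added after the data were seen, was the class of 160 or more reads without the ribosomal clusters, with -0.031. Among positions within 1 kb of a gene start the difference was -0.07. With 3 or more others as the rule there were 53432 clustered positions in 15387 clusters, 70.2% listed in both libraries, 21.1% called, a count ratio to isolated positions of 0.933 and 10.1% of clusters within 1 kb of a start. With 8 or more others there were 1063 in 195 clusters, with 60.2% in both, a log2 difference of 0.45, a count ratio of 0.60 and 24.1% near starts. A window of 250 bp gave 2016 in 524 clusters, 62.2%, 0.45 and 0.613. A window of 1000 bp gave 36511 in 10234 clusters, 70.8%, 21.2% called and a count ratio of 1, so the lower count of clustered positions was not seen there. Keeping 1 position of each run within 16 bp left 5654, with 69.4%, 0.33 and 0.867. Requiring 10 reads in either library left 3304 in 858 clusters, with 84.7% in both, 27.7% called and a count ratio of 0.974. Choosing members in undifferentiated cells alone gave 4545, with a log2 difference of 0.26 and a count ratio of 0.882, and in differentiated cells alone 5520, with 0.23.

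Giving unlisted positions 0 reads raised the called share to 34.9% of positions and 42.8% of clusters. Positions listed in both libraries gave a log2 difference of 0.15 and 19.4% called. The median-ratio scaling gave 17.3% and 27.7% of clusters called, the RPM divisors 16.7% and 27.4%, and a change of at least 2-fold 16.5% and 12.4%. By summed count the log2 difference was 0.68, 0.49, 0.19, 0.10 and 0.23 in rising classes. Within 2 kb of a start lay 20.9% of clusters. In alternatives added after the data were seen, members with no listed neighbour within 100 bp had 70.1% in both, a log2 difference of 0.22, 20.6% called and a count ratio of 0.933, and with none within 32 bp 71.2%, 0.28, 19.5% and 0.967. Full-match alignments only, leaving out the 1000 highest positions, and leaving out chromosomes 8, 12 and 17 kept the values tried there within the main interval or 1.5 times the main count. The cause of each shift was not tested. A listing minimum of 5 reads and medians of 15 limit what a single site can show.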

Other observations

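Reads of the other motifs listed in the tables, CCAGG and CCTGG, whose cytosine methylation is not in a CpG, were also summed around the members. Between 33 and 500 bp from the nearest listed CCGG, 3979 such sites near clustered positions had 25952 reads in undifferentiated and 33694 in differentiated cells, a log2 ratio of 0.46 per CCGG total. Near isolated positions 131267 such sites had 646842 and 1029147 reads, a log2 ratio of 0.76. At 0 to 32 bp, where a fragment can hold both motifs, the order was the other way, with 0.34 at 3564 sites near clustered and 0.30 at 48955 sites near isolated positions. At 33 to 500 bp there were 0.437 such sites per clustered and 0.309 per isolated position.

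In 10 clusters a distance between adjacent listed sites occurred 3 or more times. Besides those on proximal chromosome 12, a cluster of 14 members in Unc45b, which encodes a myosin chaperone of muscle, had a spacing of 17 bp 4 times, one of 7 members in Qrich2 had 30 bp 4 times, and one of 7 members in Magel2 had 18 bp 3 times.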
